A study of Rattus norvegicus with 3 samples.

Results

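The 10 genes described here are core transcription regulators of heart muscle: the zinc finger factors Gata4 and Gata6, the T-box factors Tbx5 and Tbx20, the homeobox factor Nkx2-5, the MADS-box factors Mef2a, Mef2c and Mef2d, the basic helix-loop-helix factor Hand2, and the coactivator Myocd (myocardin). They were chosen by name, and all 10 of 10 were found among the 22250 genes of the files. Single-nucleus RNA sequencing was performed on the heart apex, a piece of septum with both ventricles, of rats aged 12 months, in 1 library each for 3 genotypes. WT rats were healthy littermates on the Sprague Dawley background. BMD rats (R-BMDdel45-47) carried an in-frame CRISPR/Cas9 deletion of Dmd exons 45 to 47, and DMD rats (R-DMDdel52) carried a deletion of Dmd exon 52, in every cell of the body. The sources used here do not say how many animals went into each library, and with no replicates no p-value could be computed. Every interval below is a 95% interval of counting error and leaves out the variation between animals, so that genotype, animal and library cannot be told apart.

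These factors bind DNA side by side at the enhancers of contractile, ion channel and natriuretic peptide genes. GATA, T-box and NKX2 factors contact each other and share many targets, MEF2 factors answer calcium and kinase signals through class II histone deacetylases, and myocardin is brought to muscle genes by the DNA-binding serum response factor, Srf. In the embryo they lay down the heart, and in the adult they keep up the cardiomyocyte programme and take part in its response to load.

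The nuclei were clustered without the 10 factors and the listed regulators and heart muscle targets, and the classes were named from markers. The cardiomyocyte markers Tnnt2, Actn2, Tnni3, Ryr2, Myh6, Myl2, Mybpc3 and Pln are also listed targets, so their levels are not independent of the naming. The 4569 cardiomyocyte-like nuclei, 2015 in WT against 1499 in BMD and 1055 in DMD, raised 11 of 11 markers found and held 6258770, 6343857 and 3779318 unique molecular identifiers (UMIs). Their median depth was 2751 UMIs in WT against 3735 in BMD and 3208 in DMD. The summed level of the cardiomyocyte markers was 39170 counts per 1000000 UMIs (CPM) in WT against 40174 in BMD and 39485 in DMD. The 9 fibroblast markers found summed to 193 CPM in WT against 148 in BMD and 357 in DMD within these nuclei, and the 9 endothelial markers to 117, 183 and 207 CPM, with each of those markers above 0 in every library. The targeted gene Dmd had 16560 CPM in WT against 20960 in BMD and 19589 in DMD, so its nuclear count did not check the labels. The free RNA estimate for these nuclei was 5.37% of UMIs (WT), 7.77% (BMD) and 4.01% (DMD).

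In cardiomyocyte-like nuclei, Tbx20 and Gata4 had more transcripts in both dystrophin-mutant libraries than in WT, while Mef2c, Mef2a and Tbx5 had fewer. Mef2c had the widest log2 ratio of the 10 between DMD and WT, with 653 CPM in WT against 432 in BMD and 294 in DMD. Gata6 was lowest in BMD and Myocd was lowest in DMD. Mef2d lay close to WT, and Nkx2-5 and Hand2 gave too few UMIs to be ordered. A gene was said to be past 1.5-fold when the ratio of its CPM between 2 libraries was at least 1.5 in either direction, and genes with at least 50 UMIs over the 3 libraries were counted. With BMD over WT, 1 of 10 factors was past 1.5-fold higher (Tbx20), against 8.21% of 10057 genes, and 2 were past it lower (Gata6 and Mef2c), against 10.3% of genes. With DMD over WT, 1 was higher (Tbx20) and 1 lower (Mef2c), against 10.9% of genes in either direction. With DMD over BMD, 0 of 10 were higher or lower, against 8.53% and 5.45% of genes. The share of factors past 1.5-fold thus lay near the share of all genes. The median log2 ratio of the 10 factors was -0.22 for BMD over WT and -0.26 for DMD over WT, beside -0.08 and -0.03 for all genes.

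The libraries filled different parts of the cardiomyocyte-like class. When these nuclei were clustered again, subcluster 0 held 1052 nuclei of WT against 179 of BMD and 153 of DMD, and subcluster 3 held 800, 54 and 5. Subcluster 1, led by the immediate early and heat shock genes Fos, Hspa1b and Nr4a1, was mostly BMD, with 15, 568 and 63 nuclei, and subcluster 4, led by Pde11a and Pkd1l1, was mostly DMD, with 8, 89 and 633. Subcluster 2 held 128, 598 and 177 nuclei, and only subclusters 0 and 2 had at least 100 nuclei of every library. The ratios over the whole class therefore compare different mixtures of these subclusters. Within subclusters 0 and 2, which were compared only once the data had been seen, Tbx20 had log2 ratios of 0.44 and 0.68 for BMD over WT and of 0.68 and 0.71 for DMD over WT, and Gata4 had 0.56 and 0.37 for BMD and 0.53 and 0.32 for DMD, all with intervals above 0. Mef2c had -0.52 and -0.28 for BMD and -1.48 and -0.89 for DMD, all with intervals below 0. Gata6 was below WT within both for BMD (-0.48 and -0.38), under 1.5-fold, while its ratios for DMD of -0.13 and 0.16 had intervals that held 0. Within subcluster 2, the ratios of Mef2a and Tbx5 were 0.02 and 0.30 for BMD and -0.20 and 0.05 for DMD, all with intervals that held 0. For DMD those intervals (-0.48 to 0.08 and -0.57 to 0.69) also held the whole-class ratios of -0.29 and -0.46. Whether the lower level was kept in DMD thus could not be told. Tbx5 in DMD was 0.14 within subcluster 0, on 31 UMIs. Myocd in DMD was -0.78 within subcluster 0 (-0.98 to -0.58) and -0.09 within subcluster 2 (-0.23 to 0.06), and in BMD it was -0.09 and 0.29.

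**Figure D1:**
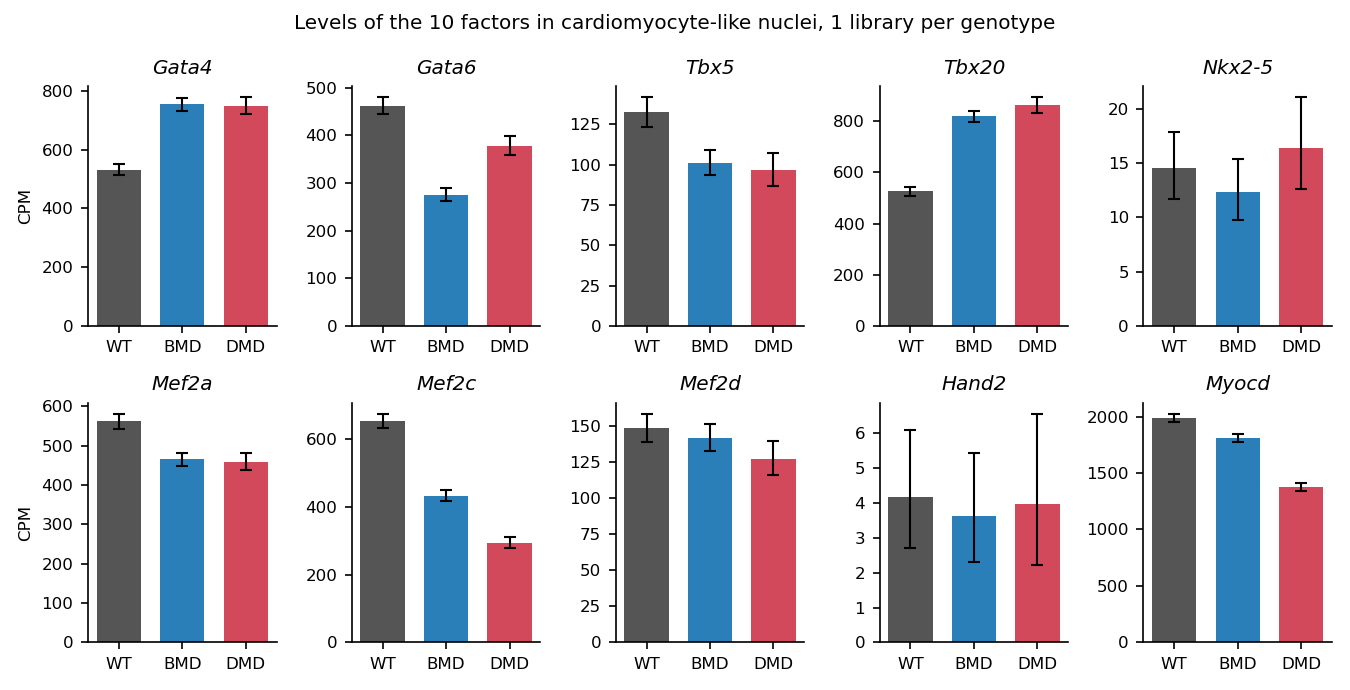
Level of each of the 10 factors in cardiomyocyte-like nuclei, in CPM (each panel on its own linear axis from 0), with 1 bar per library (WT, BMD, DMD) and the exact Poisson 95% interval of counting error. Tbx20 and Gata4 are higher in both mutant libraries, Mef2c steps down over the libraries (653, 432 and 294 CPM), and the intervals of Nkx2-5 and Hand2 overlap in all libraries.

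Gata4, which opens cardiac chromatin and drives natriuretic peptide and contractile genes, had 533 CPM in WT (95% interval 515 to 551) against 755 for BMD (734 to 777) and 750 for DMD (723 to 778). The mutant libraries lay together and above WT. The log2 ratio over WT came to 0.50 for BMD (0.44 to 0.57) and 0.49 for DMD (0.42 to 0.57), a fold of 1.42 and 1.41 that stayed under 1.5, and the ratio of DMD over BMD was -0.01 (-0.08 to 0.06). Gata6, its close relative with overlapping roles in the ventricle, had 462 CPM in WT against 276 in BMD and 378 in DMD. It thus lay lower in both mutant libraries, and lower in BMD than in DMD. Over WT, its log2 ratio came to -0.75 for BMD (-0.83 to -0.66) and -0.29 for DMD (-0.38 to -0.20), and that of DMD over BMD was 0.46 (0.35 to 0.56). Over the whole class, the 2 GATA factors therefore differed from WT in opposite directions. Within subclusters 0 and 2, the intervals of Gata6 in DMD over WT held 0.

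Tbx20, a T-box factor that adult cardiomyocytes need for contraction and rhythm, had 526 CPM in WT against 819 in BMD and 863 in DMD. Both mutant libraries were above WT by more than their intervals, with a log2 ratio of 0.64 for BMD (0.58 to 0.70) and 0.71 for DMD (0.65 to 0.79). Fibroblast markers, of another cell type with much Tbx20, were highest in the cardiomyocyte-like nuclei of DMD, at 357 CPM beside 16181 CPM in DMD fibroblast-like nuclei, and their part in the Tbx20 values was not tested. Tbx5, the T-box factor of septation and of the conduction system, had 132 CPM in WT against 101 in BMD and 96.6 in DMD. Over WT, the log2 ratio of Tbx5 was -0.39 (-0.54 to -0.24) in BMD and -0.46 (-0.64 to -0.28) in DMD, and the mutant libraries did not differ beyond counting error, with -0.07 (-0.25 to 0.12). As with the GATA pair, 1 T-box factor was higher and the other lower in both mutant libraries over the whole class. Within subcluster 2, the Tbx5 intervals held 0 in both comparisons with WT, and that of DMD also held the whole-class ratio of -0.46.

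Mef2c, the MEF2 factor of the early heart tube, had 653 CPM in WT (633 to 673) against 432 for BMD (416 to 448) and 294 for DMD (277 to 312). The 3 libraries stood in steps, with no overlap of their intervals. Over WT, its log2 ratio came to -0.60 for BMD (-0.67 to -0.53) and -1.15 for DMD (-1.25 to -1.06), so that the WT level was 1.51 times that of BMD and 2.22 times that of DMD, and the ratio of DMD over BMD was -0.56 (-0.66 to -0.45). After each nucleus was thinned to 500 UMIs, 27.2% of WT, 18.0% of BMD and 13.7% of DMD cardiomyocyte-like nuclei held a Mef2c UMI, beside 72.8%, 68.7% and 52.4% before thinning. In lymphoid-like nuclei, taken for comparison, the thinned shares were 7.94%, 5.68% and 9.94%. These shares are not a measured background. From 11.7% (BMD) to 25.7% (DMD) of lymphoid-like nuclei were called doublets, and Mef2c transcripts of their own were not told apart from free RNA. No nuclei were lost by the thinning. Mural markers, of a cell type rich in Mef2c, summed to 1009 CPM within cardiomyocyte-like nuclei of WT, 1021 of BMD and 692 of DMD. This sum does not measure mural RNA, since transcripts of these genes made by cardiomyocytes themselves were not told apart. The part of mural RNA in the Mef2c values was not tested.

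Mef2a, the main MEF2 factor of the adult heart, had 562 CPM in WT against 465 in BMD and 460 in DMD. Both mutant libraries lay below WT and next to each other, with log2 ratios of -0.27 (-0.34 to -0.20) and -0.29 (-0.37 to -0.21). Mef2d, the MEF2 factor tied to the hypertrophic response, had 149 CPM in WT against 142 in BMD and 128 in DMD. Its ratio over WT was -0.07 in BMD (-0.20 to 0.06), where the interval held 0, and -0.22 in DMD (-0.38 to -0.06). Over the whole class, all 3 MEF2 factors had ratios below 0 in both mutant libraries, Mef2d in BMD within counting error. Mef2c had the lowest ratio of the 3 in both. Within subclusters 0 and 2, Mef2d had ratios of 0.11 and 0.33 for BMD and of 0.08 and -0.17 for DMD. All of these intervals held 0, as did those of Mef2a within subcluster 2.

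Myocd, which switches on muscle genes together with Srf, had 1988 CPM in WT against 1809 in BMD and 1375 in DMD. BMD was near WT, with a log2 ratio of -0.14 (-0.17 to -0.10), and DMD was lower than both, with -0.53 (-0.58 to -0.48) over WT and -0.40 (-0.44 to -0.35) over BMD. A Myocd UMI was held by 56.5% of thinned WT nuclei, 53.0% of BMD and 43.4% of DMD nuclei. The ratio of DMD over WT in cardiomyocyte-like nuclei lay just under 1.5-fold, and passed it when nuclei were thinned (-0.59). It was -0.78 within subcluster 0 and -0.09 (-0.23 to 0.06) within subcluster 2, so the lower level was not seen in both. For BMD the ratios within subclusters 0 and 2 were -0.09 and 0.29 (0.17 to 0.40), the latter above WT.

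Nkx2-5 and Hand2 are compact genes and gave few UMIs in nuclei. Nkx2-5, the homeobox factor that marks cardiac precursors and is kept in adult muscle, had 91 UMIs in WT against 78 in BMD and 62 in DMD, or 14.5, 12.3 and 16.4 CPM. Over WT, its log2 ratio came to -0.24 for BMD (-0.70 to 0.21) and 0.17 for DMD (-0.32 to 0.66), and a difference was not detectable at this depth. In BMD 20.9% of its UMIs could be free RNA by the estimate, beside 3.28% in WT and 4.82% in DMD. Hand2, which patterns the right ventricle in the embryo, had 26, 23 and 15 UMIs, or 4.15, 3.63 and 3.97 CPM. Its ratios of -0.20 (-1.07 to 0.67) and -0.07 (-1.09 to 0.91) do not exclude a level 2-fold below WT.

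**Figure D2:**
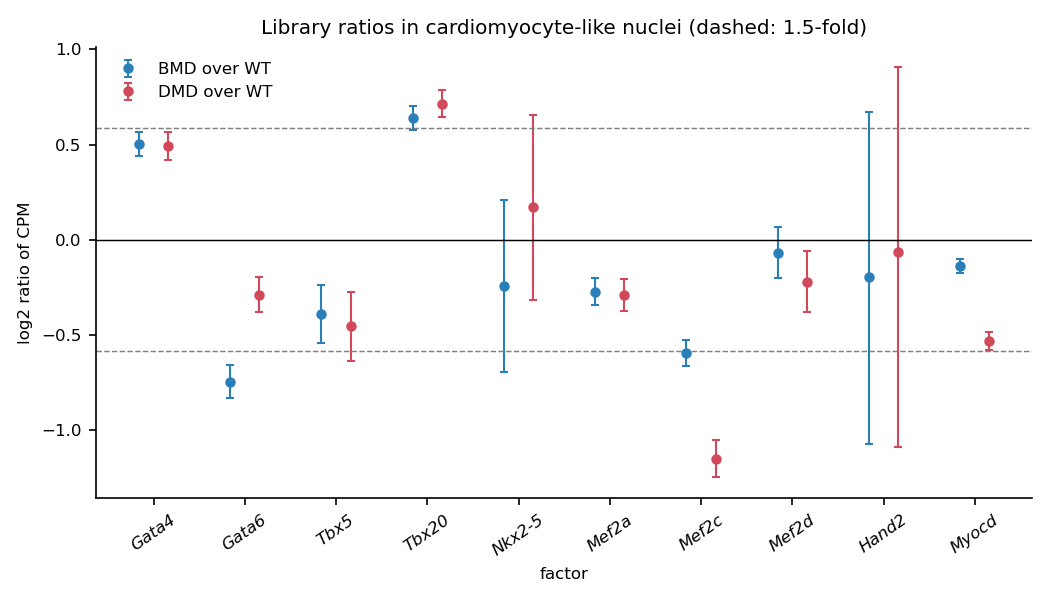
Log2 ratio of CPM in cardiomyocyte-like nuclei for each factor, with BMD over WT in blue and DMD over WT in red. Bars are 95% counting intervals and dashed lines mark 1.5-fold. Tbx20 (0.64 and 0.71) lies above the upper line and Mef2c (-0.60 and -1.15) below the lower one in both comparisons, which share the WT library.

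The factors were also seen together in single nuclei. A cardiomyocyte-like nucleus held UMIs of a median of 5 of the 10 factors in WT against 6 in BMD and 5 in DMD, and of 2 in each library after thinning to 500 UMIs. Fibroblast-like nuclei held a median of 1, 2 and 2, and lymphoid-like nuclei 1 in each library. Of the cardiomyocyte-like nuclei of WT, 0.69% had no UMI of any factor, beside 0.40% for BMD and 1.04% for DMD, and 9.98%, 10.7% and 13.5% after thinning. These nuclei share a library and differ in depth, so the counts describe the libraries only.

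Across nuclear classes the factors differed in where they were highest. Among the classes named from markers, 8 of the 10 factors had their highest level in cardiomyocyte-like nuclei, taking the mean of the 3 libraries, and Mef2a and Mef2c were the other 2. The share of all genes highest in these nuclei was not counted, so the 8 are not set against it. Mef2d could not be told from its lymphoid-like level beyond counting error, Hand2 rested on few UMIs, and Tbx20 was not highest there in WT. Levels are compared here within a gene, since a long gene gives more UMIs in nuclei than a short one. Myocd and Tbx5 were held most closely to cardiomyocytes. Of all Myocd UMIs, 81.6% (WT), 83.8% (BMD) and 78.2% (DMD) lay in cardiomyocyte-like nuclei, and of all Tbx5 UMIs 82.0%, 82.6% and 76.5%. These nuclei were 20.2%, 22.0% and 13.4% of all nuclei, and they held a larger share of the UMIs of all genes. That share was 6258770 of 17160871 UMIs in WT, 6343857 of 14971887 in BMD and 3779318 of 13766688 in DMD. Over the 3 libraries Myocd ranged from 1375 to 1988 CPM in cardiomyocyte-like nuclei and from 32.7 to 57.8 CPM in fibroblast-like nuclei, and Tbx5 from 96.6 to 132 and from 6.71 to 8.95 CPM. Lymphoid-like nuclei, with 10.6 to 18.1 CPM of Tbx5, lay at or above the fibroblast-like level. By the free RNA estimate, 23.7 of the 34 Tbx5 UMIs in fibroblast-like nuclei of WT, 19.1 of 26 for BMD and 7.97 of 23 for DMD could be free RNA. These values may be too high, since the same estimate exceeded the whole Myocd count of fibroblast-like nuclei in WT and BMD.

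**Figure D3:**
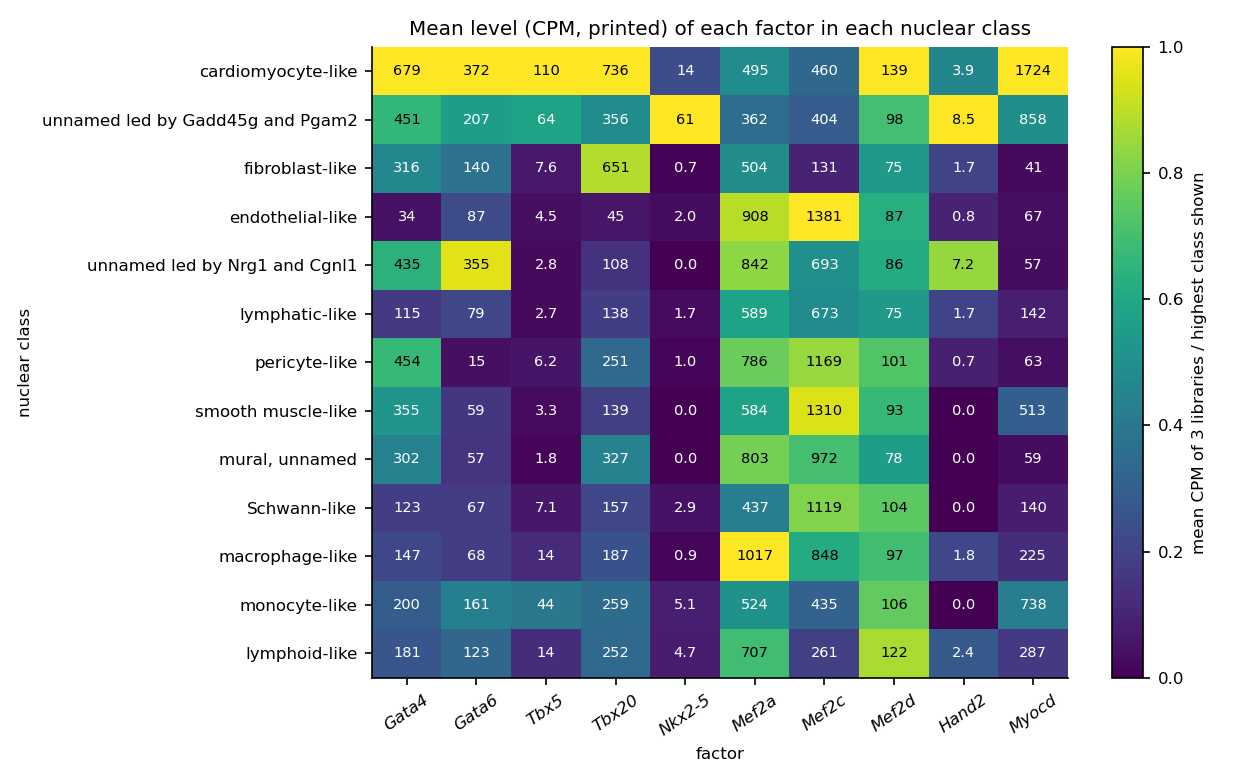
Mean CPM over the 3 libraries of each factor (columns) in each nuclear class (rows), printed in the cell, with colour giving the level relative to the highest class shown for that gene. Clusters called unnamed are given by their leading genes, and 2 clusters made mostly of doublets are left out. The row of unnamed mural nuclei is shown, although 75.5% (WT), 54.7% (BMD) and 60.8% (DMD) of them were called doublets. Cardiomyocyte-like nuclei are the brightest row for Gata4, Gata6, Tbx5, Tbx20, Mef2d and Myocd, endothelial-like nuclei for Mef2c and macrophage-like nuclei for Mef2a.

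Myocd is also a smooth muscle regulator, and smooth muscle-like nuclei, of which there were 44 in WT against 101 in BMD and 81 in DMD, had 414, 805 and 321 CPM of it from 17, 97 and 32 UMIs. The BMD value was above the DMD value, while the WT value rested on few UMIs. Pericyte-like nuclei, the neighbouring mural class, averaged 62.7 CPM. Monocyte-like nuclei, with 32 in WT, had 1371, 509 and 335 CPM of Myocd, and lymphoid-like nuclei had 260, 359 and 240. The smooth muscle-like level was thus above the monocyte-like one in BMD alone. The part of free RNA and mixed droplets in these values was not tested. Of the 8 listed smooth muscle targets of Myocd with Srf, 6 had at least 50 UMIs in smooth muscle-like nuclei, and their median log2 ratio was -0.31 for BMD over WT and -0.37 for DMD over WT, beside 0.07 and 0.05 for the 1188 genes counted there. Myh11, the smooth muscle myosin, had 5766 CPM in WT against 3949 in BMD and 4137 in DMD. The 8 listed targets were also the markers that named this class, and they were not left out of the clustering.

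Gata4 and Tbx20 reached well beyond cardiomyocytes. Gata4 ranged from 533 to 755 CPM over the libraries in cardiomyocyte-like nuclei, 421 to 509 in pericyte-like and 285 to 346 in fibroblast-like nuclei, and endothelial-like nuclei were low at 21.5 to 41.6 CPM. Tbx20 in fibroblast-like nuclei had 539 CPM in WT against 604 in BMD and 809 in DMD. In WT that level lay above the 526 CPM of cardiomyocyte-like nuclei with overlapping intervals, while the cardiomyocyte-like level was the higher one in BMD and, again with overlapping intervals, in DMD. Lymphoid-like nuclei held 171 to 302 CPM of Tbx20 and 125 to 226 CPM of Gata4. By the estimate, which may be too high for this class, free RNA could give 9.91% of the Gata4 UMIs of fibroblast-like nuclei in WT. The Gata4 shares were 13.7% for BMD and 5.84% for DMD, and the Tbx20 shares 7.65% (WT), 8.99% (BMD) and 3.15% (DMD).

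Gata6 had 462, 276 and 378 CPM in cardiomyocyte-like nuclei and 299, 370 and 398 CPM in an unnamed cluster led by Nrg1 and Cgnl1, which raised 8 of 9 endothelial and 6 of 7 endocardial markers. The cardiomyocyte-like level was the higher in WT and the lower in BMD, and in DMD the intervals overlapped. That cluster also held 7.16 CPM of Hand2 on average, above the 3.92 CPM of cardiomyocyte-like nuclei, from few UMIs. Endothelial-like nuclei proper had 74.9 to 93.4 CPM of Gata6 and pericyte-like nuclei averaged 15.5 CPM.

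Mef2c was highest in endothelial-like nuclei, with 1454 CPM in WT against 1374 in BMD and 1316 in DMD, followed by smooth muscle-like nuclei at 1014 to 1630 and pericyte-like nuclei at 1113 to 1266 CPM. These 3 classes did not keep 1 order in all libraries. Fibroblast-like nuclei were low, at 127 to 134 CPM. Mef2a was highest in macrophage-like nuclei, at 972 to 1096 CPM, and endothelial-like nuclei followed at 821 to 991 CPM, with the value of DMD above that of macrophage-like nuclei. Mef2d was spread most evenly, with 128 to 149 CPM in cardiomyocyte-like and 108 to 134 CPM in lymphoid-like nuclei, and these classes could not be ordered beyond counting error.

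A further unnamed cluster, led by Gadd45g and Pgam2, raised 5 of 11 cardiomyocyte markers and held 65 nuclei in WT against 112 in BMD and 235 in DMD, of which 79.4% had over 5% mitochondrial UMIs. It had the highest level of Nkx2-5, with 70.9, 77.5 and 34.8 CPM, against 14.5, 12.3 and 16.4 CPM in cardiomyocyte-like nuclei. Myocd in it was below the cardiomyocyte-like level, at 1158, 950 and 465 CPM. Counting this cluster with the cardiomyocytes moved the ratio of Myocd in DMD over WT to -0.59, past 1.5-fold, and left Tbx20 and Mef2c past it in both comparisons with WT.

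The lower Mef2c of the mutant libraries was measured in cardiomyocyte-like nuclei, and the other large classes lay nearer to WT. In endothelial-like nuclei its log2 ratio over WT was -0.08 (-0.17 to 0.00) in BMD and -0.14 (-0.23 to -0.06) in DMD, in macrophage-like nuclei 0.12 and -0.01, in pericyte-like nuclei 0.02 and 0.19, and in fibroblast-like nuclei 0.08 and 0.05. In smooth muscle-like nuclei it was -0.34 (-0.76 to 0.09) in BMD and -0.68 (-1.14 to -0.22) in DMD, on 67 UMIs in WT. The unnamed cluster led by Gadd45g and Pgam2 was also past 1.5-fold, at -0.67 (-1.04 to -0.30) and -1.10 (-1.54 to -0.67). Monocyte-like nuclei had -0.39 (-1.36 to 0.52) in BMD and -0.76 (-1.43 to -0.09) in DMD, on 36 UMIs in WT. The difference in ratio between classes was not tested, with 1 library per genotype. Over all nuclei together the ratios of Mef2c were -0.07 and -0.15. Cardiomyocyte-like nuclei held 40.7% of its WT UMIs, 32.9% of its BMD and 15.3% of its DMD UMIs. Their share of the UMIs of all genes, given above, also differed between the libraries. The mixture of classes differed as well. Endothelial-like nuclei, the class highest in Mef2c, made up 15.4% of nuclei (WT) against 22.2% (BMD) and 23.9% (DMD). The part of this mixture in the ratios over all nuclei was not tested. In a bulk sample of the same tissue, fewer cardiomyocytes and less Mef2c RNA per cardiomyocyte could not be told apart.

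Mef2a did not go the same way in all classes. In fibroblast-like nuclei its log2 ratio over WT came to 0.59 for BMD (0.49 to 0.68) and 0.39 for DMD (0.29 to 0.48). In endothelial-like nuclei it was 0.15 and 0.27. Lymphoid-like nuclei lay below WT, at -0.37 (-0.62 to -0.13) for BMD and -0.18 (-0.39 to 0.03) for DMD. Macrophage-like nuclei had 0.16 and -0.02, and both pericyte-like intervals held 0. Over the whole cardiomyocyte-like class both ratios were below 0, while within its subcluster 2 both intervals held 0. Fibroblast-like nuclei had 397 CPM of Mef2a in WT against 597 in BMD and 519 in DMD. Of the 8 factors with at least 50 UMIs in fibroblast-like nuclei, 2 were past 1.5-fold higher in BMD over WT (Mef2a and Myocd), against 6.63% of 10663 genes, and 0 were lower, against 11.4%. In DMD over WT 0 of 8 were past it, against 6.26% of genes higher and 6.1% lower, and Tbx20 stood just under it at 0.58. Myocd in fibroblast-like nuclei was 32.7 CPM in WT against 57.8 in BMD and 32.7 in DMD, below the 240 to 359 CPM of lymphoid-like nuclei, and the summed cardiomyocyte markers in fibroblast-like nuclei were 824, 1321 and 1072 CPM, so the BMD library was highest for both. The free RNA estimate for Myocd there came to 252% of the UMIs counted in WT, 149% for BMD and 62.2% for DMD. It was more than the whole count in WT and BMD, and so too high for Myocd there. The other free RNA shares of fibroblast-like nuclei rest on the same estimate and may also be too high.

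Gata4 in fibroblast-like nuclei had ratios of 0.15 (0.03 to 0.27) in BMD and 0.28 (0.17 to 0.39) in DMD, on the same side as in cardiomyocyte-like nuclei. Endothelial-like (0.95 and 0.89, on 29 WT UMIs) and lymphoid-like nuclei (0.86 and 0.64) had higher ratios, with intervals above 0. Pericyte-like intervals held 0, and lymphatic-like nuclei were lower for BMD (-0.96). Tbx20 was also past 1.5-fold higher among lymphoid-like nuclei (0.73 and 0.82). Free RNA held 249 CPM of Gata4 (WT) against 344 (BMD) and 282 (DMD), and its part in these classes was not tested. Gata6 in fibroblast-like nuclei was 141 CPM in WT against 146 in BMD and 132 in DMD, with ratios of 0.05 (-0.13 to 0.23) and -0.09 (-0.27 to 0.08). The low Gata6 level of the BMD library was therefore not seen in fibroblast-like nuclei, but it was not confined to cardiomyocyte-like nuclei. The BMD ratio of Gata6 was -0.75 (-1.27 to -0.25) among macrophage-like and -1.55 (-2.61 to -0.53) among lymphatic-like nuclei, the latter on 15 BMD UMIs. Intervals of lymphoid-like (0.44), pericyte-like (0.17) and endothelial-like (-0.32) nuclei held 0. Free RNA held 258 CPM of Gata6 (WT) against 147 (BMD), and its part in these classes was not tested.

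**Figure D4:**
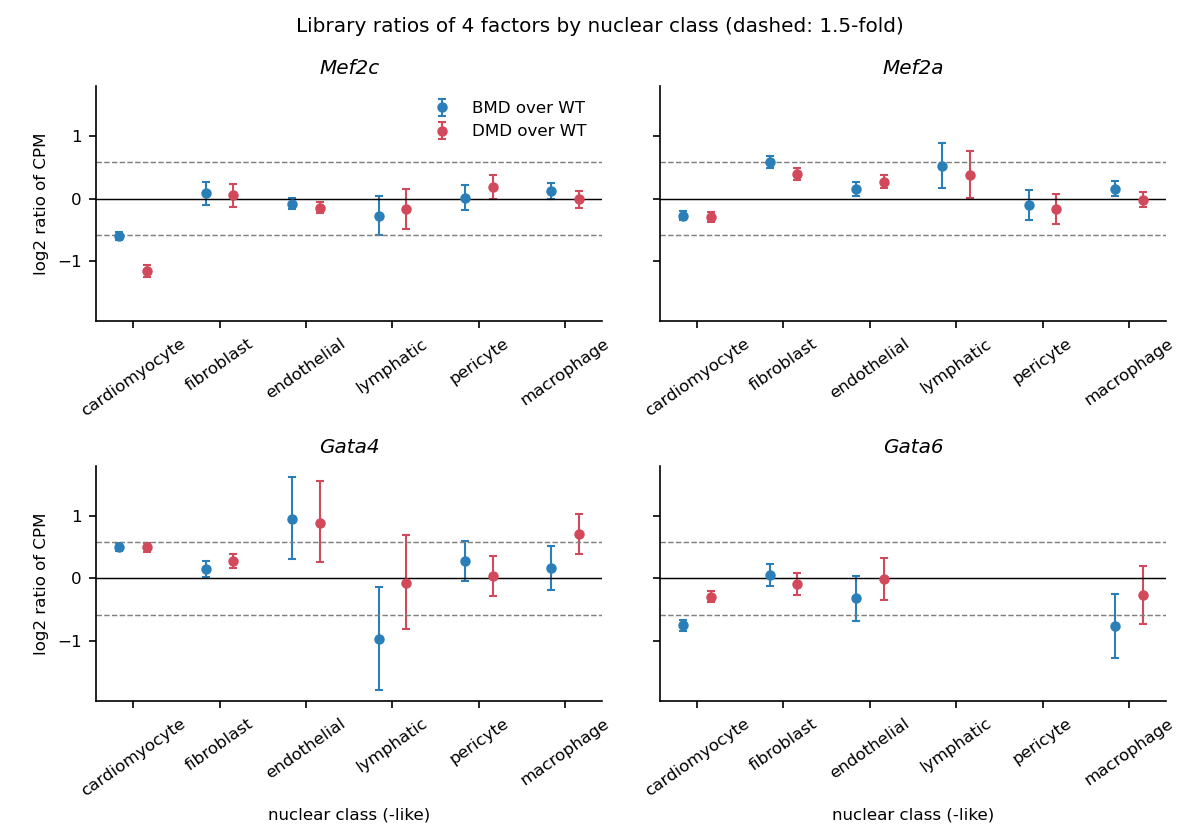
Log2 ratio of CPM over WT for Mef2c, Mef2a, Gata4 and Gata6 in 6 nuclear classes, with BMD over WT in blue, DMD over WT in red, 95% counting intervals as bars and dashed lines at 1.5-fold. Ratios resting on fewer than 50 UMIs are not drawn. Mef2c is past 1.5-fold in cardiomyocyte-like nuclei alone among these 6 classes, and Mef2a is below 0 in cardiomyocyte-like and above 0 in fibroblast-like nuclei. Among classes not drawn, the unnamed cluster led by Gadd45g and Pgam2 was past 1.5-fold lower for Mef2c in both comparisons. Smooth muscle-like and monocyte-like nuclei were past it in DMD over WT.

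The factors and cofactors around the 10 were examined as a list of 45 regulators, of which 44 were found and 34 reached 50 UMIs among cardiomyocyte-like nuclei. The median log2 ratio of these 34 was -0.26 for BMD over WT, with 10 above and 24 below 0, and -0.16 for DMD over WT, with 12 above and 22 below. Among all genes 41.4% and 46.7% lay above 0. Past 1.5-fold were 2 higher and 3 lower in BMD, against 8.21% and 10.3% of all genes, and 1 higher and 6 lower in DMD, against 10.9% each way. Ankrd1, a stretch-responsive cofactor of the sarcomere and nucleus, had 3766 CPM in WT against 6415 in BMD and 6947 in DMD, with log2 ratios of 0.77 and 0.88. Hopx, a homeodomain cofactor without DNA binding, had 7.03, 15.9 and 7.67 CPM and was higher in BMD alone (1.18). Meis1, a homeobox factor that restrains cardiomyocyte division, had 292, 189 and 159 CPM, with ratios of -0.63 and -0.87. Mitf had 1084, 789 and 640 CPM, with ratios of -0.46 and -0.76.

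Of the relatives of the factors, Gata5 had 219 UMIs in WT against 163 in BMD and 147 in DMD, and its ratio was -0.45 (-0.75 to -0.15) in BMD and 0.15 (-0.16 to 0.46) in DMD. Mef2b rested on 41, 18 and 8 UMIs, with ratios of -1.21 and -1.63. Tbx3 had only 23 UMIs in all, 18 in WT against 2 in BMD and 3 in DMD. Its ratios on these few UMIs were -3.19 (-6.34 to -1.13) and -1.86 (-4.26 to -0.08). In cardiomyocyte-like nuclei of the 3 libraries together, Tbx18 had 26 UMIs, Tbx2 had 1 and Hand1 had 0, which allows up to 0.479 CPM in WT against 0.473 in BMD and 0.794 in DMD.

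Cofactors known to bind the factors were named for that role after their values were seen. Zfpm2, the partner of Gata4, had 1560 CPM in WT against 1484 in BMD and 1731 in DMD, ratios of -0.07 and 0.15. Srf, the partner of Myocd, had 24.8, 23.2 and 32.3 CPM, ratios of -0.10 (-0.43 to 0.24) and 0.38 (0.03 to 0.73). The class II histone deacetylases Hdac4, Hdac5, Hdac7 and Hdac9, which hold MEF2 factors in check, all had ratios below 0 in both mutant libraries, from -0.50 to -0.30 in BMD and from -0.59 to -0.17 in DMD, where the interval of Hdac4 held 0. Hdac9, with the most UMIs of them, had 817, 580 and 572 CPM.

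The genes that these factors are known to drive were examined as a list of 34, of which 33 were found and 31 reached 50 UMIs among cardiomyocyte-like nuclei. The median log2 ratio of these 31 was 0.14 for BMD over WT and 0.16 for DMD over WT. Past 1.5-fold higher were 10 in BMD and 8 in DMD, against the 8.21% and 10.9% of all genes, and 1 and 2 were lower. Many of these targets are themselves markers of the load response, and the list was chosen with earlier results of these data known. Acta1, skeletal actin, had 29.1 CPM in WT against 209 in BMD and 220 in DMD, with ratios of 2.84 and 2.92. Nppa and Nppb, the natriuretic peptides, had ratios of 2.24 and 2.33, and of 1.31 and 1.31. Xirp2, a protein of the intercalated disc and Z-disc, stood at 945, 2895 and 1652 CPM. Actc1, Myl3 and Myl4 were also past 1.5-fold higher in both, with ratios of 1.16 and 1.25, 0.69 and 0.71, and 1.54 and 2.42. By the mean of both ratios, the ion channel gene Kcnh2 was lowest of the 31, at -0.51 and -0.85. Gja5, under the limit of 50 with 37 UMIs, had -1.74 and -0.99. Myh6, the fast cardiac myosin, was lower in BMD (-0.83) and near WT in DMD (-0.05).

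**Figure D5:**
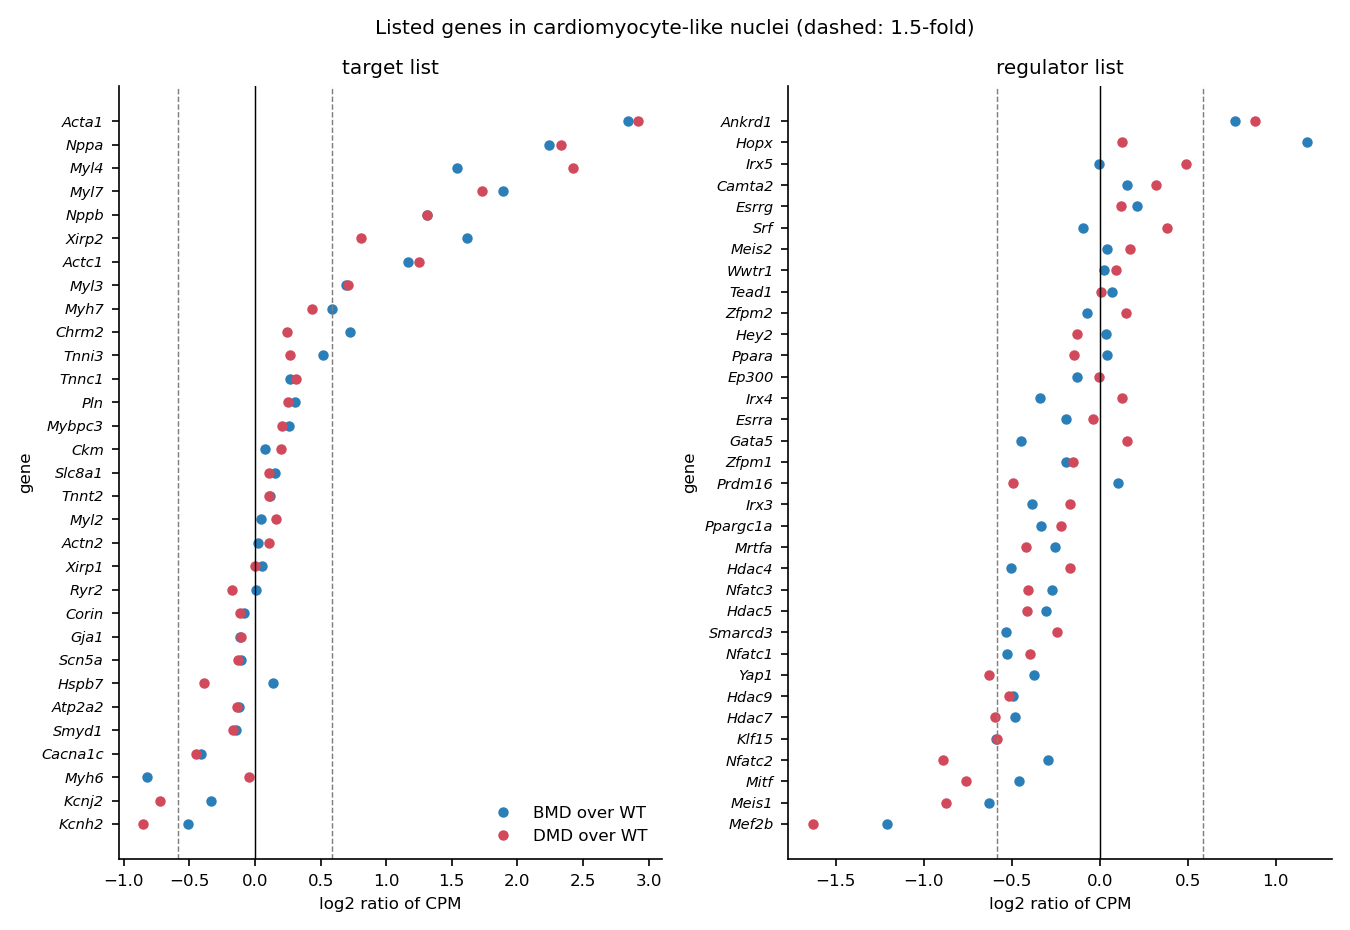
Log2 ratio of CPM in cardiomyocyte-like nuclei for the listed targets (left) and the listed regulators (right) with at least 50 UMIs, ordered by the mean of both ratios, BMD over WT in blue and DMD over WT in red, dashed lines at 1.5-fold. Acta1, Nppa, Myl4, Nppb, Xirp2, Actc1, Myl3 and, on 54 UMIs, Myl7 lie past the upper line in both comparisons, while more regulators lie below 0 than above it.

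Promoters of these genes were read for the short DNA words that the factors bind, from the RefSeq table of the GRCr8 build, which holds 300 bases a gene (250 before to 50 after the start), while the counts were made on rn6. A promoter was found for 7 of the 10 factors and 30 of the 34 targets. Both strands were searched for the GATA words AGATAA and TGATAA, the T-box word AGGTGT, the NKX2 word AAGTGG, the MEF2 site and the CArG box of Srf. Of 27457 promoters, 18.6% held a GATA word, 13.4% the T-box word, 16.1% the NKX2 word, 0.60% a MEF2 site and 1.64% a CArG box. Of the 30 target promoters, 9 held a GATA word, 2 the T-box word, 6 the NKX2 word, 4 a MEF2 site and 3 a CArG box. The sequences below belong to targets past 1.5-fold higher in both mutant libraries and to Mef2a, the factor whose promoter held a MEF2 site, and they were chosen for holding a word. Every searched word is shown in capitals. Each is written 5′ to 3′ along the gene.
Nppa, chr5:163711934-163712233, plus strand: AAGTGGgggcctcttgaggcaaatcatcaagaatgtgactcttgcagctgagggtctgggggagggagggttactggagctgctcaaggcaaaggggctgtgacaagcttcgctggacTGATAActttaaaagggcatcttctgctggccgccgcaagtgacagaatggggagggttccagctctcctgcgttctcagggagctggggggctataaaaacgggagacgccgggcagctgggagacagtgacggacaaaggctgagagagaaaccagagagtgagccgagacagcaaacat
Nppb, chr5:163699758-163700057, plus strand: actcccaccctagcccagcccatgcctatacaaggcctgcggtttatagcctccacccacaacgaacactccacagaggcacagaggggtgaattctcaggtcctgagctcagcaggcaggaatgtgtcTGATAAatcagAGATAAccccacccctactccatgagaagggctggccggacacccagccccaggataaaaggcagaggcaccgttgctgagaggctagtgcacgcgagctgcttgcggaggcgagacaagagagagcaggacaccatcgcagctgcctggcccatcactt
Myl4, chr10:89975900-89976199, plus strand: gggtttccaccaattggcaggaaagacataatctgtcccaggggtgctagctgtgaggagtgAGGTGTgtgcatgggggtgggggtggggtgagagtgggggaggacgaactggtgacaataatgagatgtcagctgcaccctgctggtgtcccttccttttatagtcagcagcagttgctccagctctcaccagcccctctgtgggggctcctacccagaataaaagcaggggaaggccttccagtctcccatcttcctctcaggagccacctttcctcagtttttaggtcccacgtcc
Acta1, chr19:68784145-68784444, minus strand: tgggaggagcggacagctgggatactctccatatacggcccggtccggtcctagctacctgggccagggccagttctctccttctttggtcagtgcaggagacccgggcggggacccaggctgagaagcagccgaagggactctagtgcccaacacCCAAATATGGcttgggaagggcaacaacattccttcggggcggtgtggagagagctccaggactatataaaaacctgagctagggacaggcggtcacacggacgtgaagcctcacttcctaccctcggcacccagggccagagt
Xirp2, chr3:72533936-72534235, plus strand: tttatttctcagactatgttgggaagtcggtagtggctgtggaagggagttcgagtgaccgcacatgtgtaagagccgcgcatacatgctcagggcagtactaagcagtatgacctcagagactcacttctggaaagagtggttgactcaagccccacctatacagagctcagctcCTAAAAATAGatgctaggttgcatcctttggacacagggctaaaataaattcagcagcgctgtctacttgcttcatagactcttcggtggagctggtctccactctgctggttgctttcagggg
Mef2a, chr1:130392113-130392412, minus strand: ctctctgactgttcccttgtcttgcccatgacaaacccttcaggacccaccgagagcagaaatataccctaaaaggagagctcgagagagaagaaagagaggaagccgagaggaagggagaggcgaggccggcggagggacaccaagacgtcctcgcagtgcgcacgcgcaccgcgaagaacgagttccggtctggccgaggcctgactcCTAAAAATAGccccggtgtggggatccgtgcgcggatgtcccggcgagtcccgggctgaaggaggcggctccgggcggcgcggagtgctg

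The capitals mark a GATA word and, at the first bases, the NKX2 word in Nppa, GATA words in Nppb, the T-box word in Myl4, the CArG box in Acta1 and MEF2 sites in Xirp2 and Mef2a. Nppb carried 2 GATA words, at -121 to -116 and at -110 to -105 from the start, and Nppa 1 at -132 to -127, with its NKX2 word at -250 to -245. The CArG box of Acta1 lay at -94 to -85, the MEF2 site of Xirp2 at -74 to -65 and that of Mef2a at -40 to -31. In cardiomyocyte-like nuclei the log2 ratios of the target genes with a MEF2 site that were found in the files were 1.62 and 0.81 for Xirp2 (BMD and DMD over WT), 0.26 and 0.21 for Mybpc3 and 0.14 and -0.39 for Hspb7, beside -0.27 and -0.29 for Mef2a. A match of letters is a description of the promoter, and binding was not measured.

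The genes whose levels followed each factor most closely were found over 39 profiles, the 13 classes with at least 50 nuclei in every library in each of the 3 libraries, by Pearson correlation of log2(CPM + 5) among 11331 genes with at least 200 UMIs. The profiles share libraries, depth and mixed droplets, so the values describe likeness only. Myocd went with Rbm20 (r = 0.98), Ryr2 and Fhl2 (both 0.97), which encode a cardiac splicing factor, the calcium release channel and a LIM protein of muscle. Tbx5 went with Cacna2d2 (0.95), Esrrg (0.94) and Rhot1 (0.93). Nkx2-5 went with Lrrc14b (0.93), Mb, which is myoglobin (0.91), and RGD1564899 (0.91).

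Gata4 followed Cacna2d1 (0.92), Bmpr1a (0.88), a receptor for bone morphogenetic proteins, and Col4a5 (0.88), and Tbx20 followed Fat1 (0.93), Pdzrn3 (0.92) and Ank2 (0.88). Gata6 was nearest to Mcc (0.82), Thrb (0.79) and Tpd52l1 (0.79), and Hand2 to Hamp (0.80), Irx5 (0.71) and Cited2 (0.71). The neighbours of the MEF2 factors were Hip1 (0.85), Gatad2a (0.78) and Mink1 (0.78) for Mef2a, Stard8 (0.83), Gcnt2 (0.78) and the endothelin receptor Ednrb (0.74) for Mef2c, and Rad54l2 (0.74), Asb12 (0.72) and Eps15l1 (0.72) for Mef2d. Among the factors themselves the closest pairs were Tbx5 with Myocd (0.88), Gata4 with Tbx20 (0.76) and Tbx5 with Nkx2-5 (0.73).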

How the data were processed

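Nuclei sorted from rat heart apex were measured in 1 library per genotype. The files deposited by the authors hold raw UMI counts per gene and barcode, made with Cell Ranger on rn6 (submitters' processing notes; file headers name version 6.0.1 for the WT file and 4 for the others). The labels name a 3′ v3.1 kit, the study's results a 5′ one, and intron counting is not given in the sources used here. The WT file is an aggregate of the 3 libraries, and its suffix 3 barcodes were read as WT. BMD and DMD came from their own files, which held 21142346 and 19215994 UMIs, beside 21609238 for WT.

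The barcodes with the most UMIs, up to the study's 9964, 6810 and 7890, were taken as nuclei. The libraries shared 20 (WT and BMD), 12 and 12 nuclear barcodes. After scaling to 10000 UMIs, 2000 variable genes, 30 principal components and 15 neighbours entered Leiden clustering at resolution 0.5 (scanpy 1.11.5, igraph 0.11.9). The factors, listed regulators, heart muscle targets, mitochondrial and sex genes were left out beforehand. The smooth muscle targets of Myocd were not left out. A marker counted at 2-fold over other nuclei. A name needed 3 markers and, by a rule added after the clusters were seen, 50% of the list raised and no majority of Scrublet doublets. Cardiomyocyte-like nuclei were clustered again by the same steps. UMIs were summed per class and library. Intervals are exact Poisson or Clopper-Pearson (scipy 1.17.1), and a floor is 3 counts. Free RNA came from barcodes with at most 50 UMIs. The ratio and thinning functions were tested on simulated data.

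The genes and lists were chosen with earlier results of these data known. The genes named are the 10 factors, their 3 closest genes, listed genes with at least 100 UMIs past 1.5-fold in both comparisons with WT, the 2 highest and 2 lowest of each list, and family members. In the GRCr8 annotation, Gata4, Mef2c and Myocd each overlap 1 lncRNA gene, whose reads cannot be told apart unless counting used strand. For the ratios 13 other settings and 4 more chosen after the data were seen were run (TMM factors from edgeR 4.0.16), and for the counts also a fold of 2.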

Additional observations from a re-analysis of the deposited data

Results flagged for a closer look

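Over whole classes, Mef2a had opposite signs between the nuclear classes given here in both mutant libraries, with their counting intervals clear of 0. In cardiomyocyte-like nuclei the log2 ratio over WT came to -0.27 for BMD and -0.29 for DMD. Within subclusters 0 and 2 of that class it was -0.33 and 0.02 for BMD and -0.25 and -0.20 for DMD. Of these, only the BMD interval of subcluster 0 (-0.58 to -0.08) was clear of 0. Among fibroblast-like nuclei it was 0.59 and 0.39, in endothelial-like nuclei 0.15 and 0.27, and in lymphatic-like nuclei 0.51 and 0.38. Mef2c showed the same contrast against Schwann-like nuclei, with -0.60 and -1.15 in cardiomyocyte-like and 0.51 and 0.45 in Schwann-like nuclei, which were 252 in all and were also led by B cell genes. These differences between classes were not tested, since each genotype had 1 library, and both comparisons share the WT library.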

How the results depend on the processing

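The number of factors past 1.5-fold in cardiomyocyte-like nuclei was 3 for BMD over WT, and became 1 with the mean over nuclei and in nuclei of 2000 to 5000 UMIs, and 0 over all nuclei and at a fold of 2. For DMD over WT it was 2, and became 4 after thinning to 500 UMIs and 1 at a fold of 2. It became 3, within the limit set for a change, when the unnamed cluster led by Gadd45g and Pgam2 was counted with the cardiomyocytes, an alternative added after the data were seen. Within subclusters 0 and 2 alone, also added, it was 0 and 1 for BMD over WT, 4 and 2 for DMD over WT and 3 and 2 for DMD over BMD. Of 6507 genes in subcluster 0, 10.4% were higher and 16.6% lower for BMD over WT. The shares were 15.3% and 18.9% for DMD over WT, and 19.4% and 17.0% for DMD over BMD. Of 7326 genes in subcluster 2 they were 9.60% and 16.6%, 12.3% and 17.8%, and 8.56% and 8.09%. The counts of factors took in Nkx2-5 in subcluster 0, on 8 DMD UMIs, and Hand2 in subcluster 2, on 4. For DMD over BMD the number of factors was 0 over the whole class. It became 1 each with free RNA subtracted, TMM scaling, the mean over nuclei, thinning, nuclei of 2000 to 5000 UMIs, and all nuclei. Except within subclusters 0 and 2, the share of all genes past the fold was not computed under these alternatives. A changed count there cannot be read as a result about the factors. Under the other alternatives the counts of factors stayed within 1.5 times the reported ones. For DMD over WT the count over all nuclei was still 2, but from other factors. Tbx5 (-0.77) and Myocd (-0.88) were past 1.5-fold there, while Tbx20 (0.39) and Mef2c (-0.15) were not.

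Tbx20 in DMD over WT and Mef2c in DMD over WT were past 1.5-fold under 16 of 16 alternatives within the class, Gata6 in BMD over WT under 14, Tbx20 in BMD over WT under 13 and Mef2c in BMD over WT under 11. Of 506 recomputed ratios 433 stayed within the counting interval of the reported value, and 19 of the 73 others came from all nuclei, where the classes mix. No ratio past 1.5-fold changed its side of 0. The 8 factors highest in cardiomyocyte-like nuclei among named classes numbered 7 or 8 under every alternative tried for them. The share of all genes past 1.5-fold was 18.5% for BMD over WT, 21.8% for DMD over WT and 14.0% for DMD over BMD, and became 36.3%, 40.7% and 35.1% with genes of at least 1 UMI, and 13.1%, 15.5% and 7.75% with at least 200 UMIs. Depth limits Nkx2-5 and Hand2 most. With BMD and DMD counts taken from the aggregate, the ratio of Mef2c was -0.60 for BMD and -1.15 for DMD over WT, but a difference in counting between the WT library and the others cannot be told apart from genotype. No paired analysis was possible because each genotype had 1 library. The cause of these changes was not tested.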
